A study of Mus musculus with 15 samples.

Results

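The 8 genes described here, Akap12, Kctd12, Ksr2, Clec1a, Syt13, Rflnb, Arap3 and Nup210, were chosen by their measured levels, because their RNA was high in D-gel@GSNP cells and in untreated non-SP cells and low in the other groups of a mouse glioma cell experiment. They are 8 of the 34259 genes of the count table. All 8 passed the filter on low counts and are among the 17497 genes tested. The levels that chose them are given as description, the choice had no numeric threshold, and the split between these 2 groups and the remaining 3 is a description here and carries no test. The comparisons between groups on the same side of that split were not the contrasts of the choice, and those were tested. They are not fully independent of it. A choice of genes high in both D-gel@GSNP and non-SP favours genes in which these groups are alike.

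The series profiled GL261 cells, a mouse glioblastoma line, by paired-end RNA sequencing of total RNA, with 15 libraries in 5 groups of 3, all taken at day 6. In the gel groups, which are D-gel@GSNP, L-gel@GSNP and also D-gel@NP, Hoechst-CD133+ GL261 cells were first loaded on ice into freeze-dried hydrogels that the labels call chiral, and were then kept in medium with a cytokine cocktail. In PBS, Hoechst-CD133+ cells were kept with PBS and the same cytokine cocktail without a gel, and in non-SP, untreated cells of the non-SP fraction were grown in standard medium. The labels spell out neither GSNP and NP nor the cytokines of the cocktail. All cells carry the genotype label WT and all libraries the same batch label, and the series' design text calls the non-SP cells Luci+. PBS differs from non-SP both in the cells and in the cytokines, and no group holds Hoechst-CD133+ cells without cytokines, so these cannot be told apart. Nothing in the labels says whether the 3 libraries of a group came from separate cultures, so the p-values measure the spread between these libraries, which may be technical.

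The 8 genes encode proteins of different parts of the cell. Akap12 is a membrane-associated scaffold that holds protein kinase A and protein kinase C near their targets, and Ksr2 is a scaffold of the RAF, MEK and ERK kinase cascade. Kctd12 binds GABA-B receptors and shapes how fast they desensitise, and Clec1a is a C-type lectin-like receptor encoded in the Dectin-1 gene cluster. Syt13 belongs to the synaptotagmins, membrane traffic proteins that mostly act as calcium sensors, although Syt13 itself is regarded as an atypical member that does not bind calcium. Rflnb (refilin B) binds filamins, the crosslinkers of actin, Arap3 is a GTPase-activating protein for small GTPases that responds to phosphoinositides, and Nup210 is a membrane-spanning glycoprotein of the nuclear pore.

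The RefSeq promoter table (GRCm38.p6) holds 4 of the 8 genes, each with 250 bases before and 50 after the gene start. They are shown because the genes share the levels they were chosen for, and what their start regions share was not part of that choice. Capitals mark each match to GGGCGG, the GC box bound by factors of the SP1 family, on either strand (CCGCCC on the printed strand is the same motif on the other strand).
Ksr2 promoter (GRCm38.p6, chr5:117413752-117414051, plus strand): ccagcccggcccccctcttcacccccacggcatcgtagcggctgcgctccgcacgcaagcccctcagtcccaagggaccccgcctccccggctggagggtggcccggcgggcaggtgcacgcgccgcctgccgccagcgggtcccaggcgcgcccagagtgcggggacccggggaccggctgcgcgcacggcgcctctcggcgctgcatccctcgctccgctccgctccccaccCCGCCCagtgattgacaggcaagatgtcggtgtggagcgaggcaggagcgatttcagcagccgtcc
Kctd12 promoter (GRCm38.p6, chr14:102982588-102982887, minus strand): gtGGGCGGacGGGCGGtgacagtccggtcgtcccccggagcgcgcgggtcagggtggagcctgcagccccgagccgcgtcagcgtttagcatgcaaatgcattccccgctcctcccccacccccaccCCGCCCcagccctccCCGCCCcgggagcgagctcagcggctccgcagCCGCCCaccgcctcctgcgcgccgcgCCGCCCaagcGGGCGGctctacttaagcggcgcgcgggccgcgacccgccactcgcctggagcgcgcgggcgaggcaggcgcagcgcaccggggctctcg
Rflnb promoter (GRCm38.p6, chr11:76027733-76028032, minus strand): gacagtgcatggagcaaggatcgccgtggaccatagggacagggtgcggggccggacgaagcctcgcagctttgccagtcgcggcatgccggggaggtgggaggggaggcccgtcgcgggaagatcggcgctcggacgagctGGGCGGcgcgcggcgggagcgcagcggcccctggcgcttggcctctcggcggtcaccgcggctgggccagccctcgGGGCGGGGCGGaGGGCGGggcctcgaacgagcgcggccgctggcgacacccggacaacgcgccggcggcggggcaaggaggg
Nup210 promoter (GRCm38.p6, chr6:91116777-91117076, minus strand): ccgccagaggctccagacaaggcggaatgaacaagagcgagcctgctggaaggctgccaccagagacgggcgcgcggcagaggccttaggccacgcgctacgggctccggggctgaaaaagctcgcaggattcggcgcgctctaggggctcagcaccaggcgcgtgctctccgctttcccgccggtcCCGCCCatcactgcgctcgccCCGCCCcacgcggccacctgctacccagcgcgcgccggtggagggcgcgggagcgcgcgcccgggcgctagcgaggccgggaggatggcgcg
All 4 windows are rich in G and C, with 75.3% in Ksr2, 78.0% in Kctd12, 77.0% in Rflnb and 73.7% in Nup210, against a median of 52.7% over the 32851 promoters of that length in the table. Those promoters were not limited to genes that passed the filter on low counts. The 4 windows were not set against promoters of tested genes alone. The GC box occurred 1 time in Ksr2, 7 times in Kctd12, 4 times in Rflnb and 2 times in Nup210, and 35.7% of all promoters hold it at least once. A pair of the matches in Rflnb overlaps. None of the 4 windows holds CCAAT (in 37.4% of all promoters), TATAAA (13.6%), TGANTCA (7.8%, the AP-1 motif), TGACGTCA (1.8%, the cAMP response element), CACGTG (7.2%, an E-box) or TTCCNGGAA (1.1%, a STAT motif), each searched on both strands. A match describes the letters of these windows and is no sign of a bound factor.

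Before the genes are described, the standing of the D-gel@GSNP libraries has to be given. Across all tested genes, the distance between D-gel@GSNP and non-SP libraries on log2 CPM (a count relative to its library size after TMM normalisation) was 67.6 to 73.9, close to the 65.1 to 69.0 within D-gel@GSNP and the 67.5 to 69.4 within non-SP. From D-gel@GSNP to PBS the distance was 113.3 to 123.7, although both groups are labelled as Hoechst-CD133+ cells with cytokines. Whether the treatment, the cells used or the labelling of libraries makes D-gel@GSNP so like non-SP cannot be told apart with these data, and every high value of D-gel@GSNP below carries that limit. Library totals ran from 16626413 counts (D-gel@NP replicate 1) to 98102794 counts (L-gel@GSNP replicate 3). Prom1, the gene of CD133, had means of 0.0584 CPM in D-gel@GSNP, 0.136 CPM in L-gel@GSNP, 0.107 CPM in D-gel@NP, 0.157 CPM in PBS and 0.0161 CPM in non-SP (n = 3), near 0 also in the groups labelled CD133+. In bulk RNA, fewer cells that express a gene cannot be told apart from less RNA per cell.

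Kctd12 and Akap12 were the most abundant of the 8 genes and the remaining 6 were low. Per length, D-gel@GSNP held Kctd12 at 17.4 ± 0.579 FPKM and Akap12 at 14.9 ± 0.390 FPKM, and non-SP held them at 17.7 ± 0.451 and 14.4 ± 0.452 FPKM (SD, n = 3). Rflnb and Clec1a followed with 3.27 ± 0.184 and 2.64 ± 0.157 FPKM in D-gel@GSNP, against 2.66 ± 0.144 and 2.56 ± 0.134 FPKM in non-SP. Ksr2, Nup210, Syt13 and Arap3 lay between 1.04 and 1.72 FPKM in D-gel@GSNP and between 1.09 and 1.65 FPKM in non-SP.

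**Figure D1:**
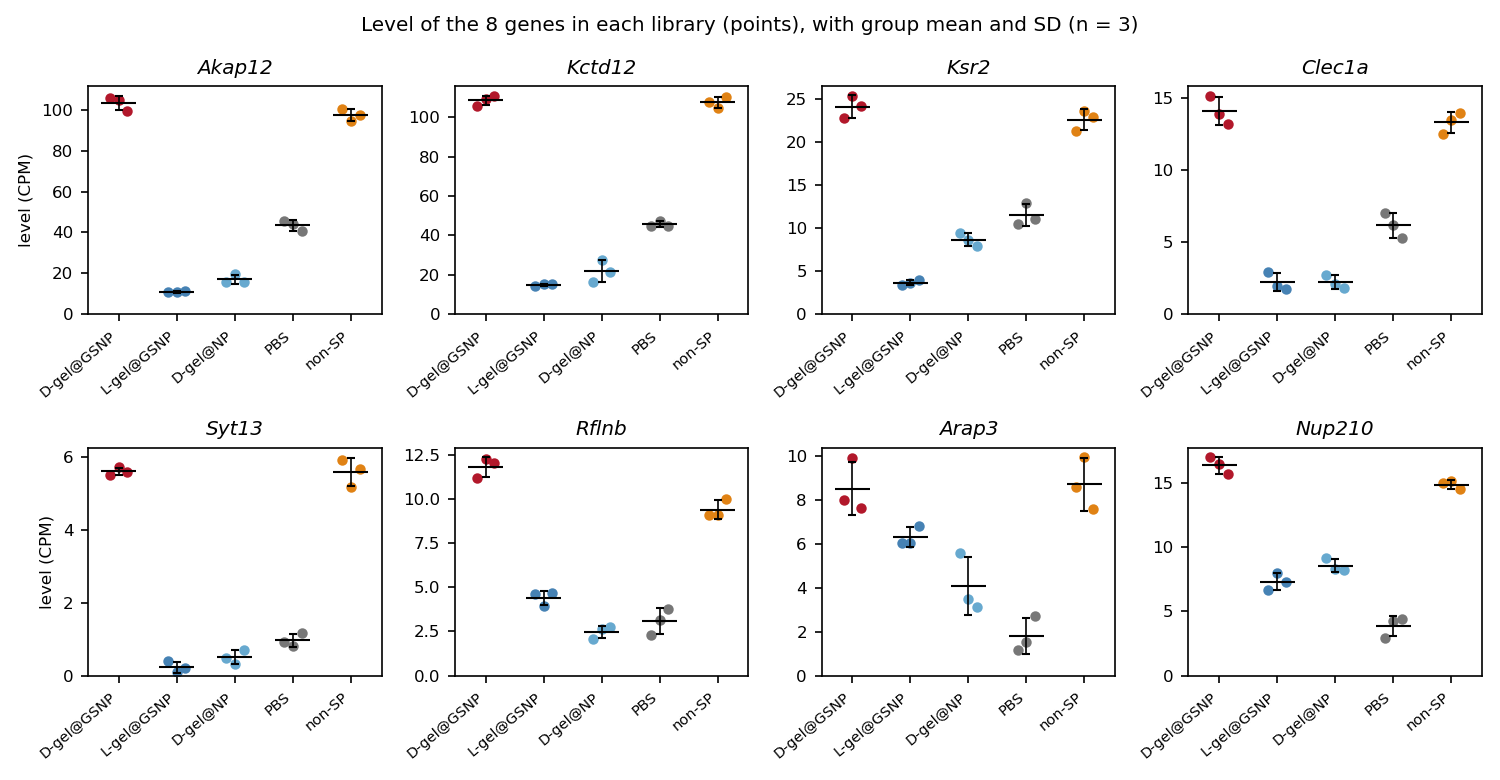
Level of each of the 8 genes in CPM (linear axis, its own scale in each panel) in every library. Points are libraries, long bars are group means and whiskers are SD (n = 3), and in each panel the D-gel@GSNP and non-SP points lie above the others, with the smallest gap in Arap3 (7.58 CPM in the lowest non-SP library, 6.85 CPM in the highest L-gel@GSNP library).

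Akap12 (ENSMUSG00000038587), the kinase scaffold, was measured at 106, 105 and 99.4 CPM in the 3 D-gel@GSNP libraries. It stood at 10.6, 10.7 and 11.5 CPM in L-gel@GSNP, at 15.9, 19.7 and 15.6 CPM in D-gel@NP and at 45.8, 44.0 and 40.6 CPM in PBS. The non-SP libraries gave 100.5, 94.8 and 97.7 CPM. The 5 groups thus formed 3 tiers without overlap between them, with D-gel@GSNP and non-SP together on top, PBS in the middle and both remaining gels at the bottom, L-gel@GSNP lowest.

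Ksr2 (ENSMUSG00000061578), the MEK and RAF scaffold, followed a like order on a lower level. It had 22.8, 25.4 and 24.2 CPM in D-gel@GSNP, 3.397, 3.58 and 3.94 CPM in L-gel@GSNP and 9.42, 8.62 and 7.92 CPM in D-gel@NP. PBS had 10.5, 13.0 and 11.1 CPM and non-SP 21.3, 23.6 and 22.9 CPM. D-gel@NP sat just under PBS here, and L-gel@GSNP stood apart below both.

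Kctd12 (ENSMUSG00000098557), the GABA-B receptor auxiliary subunit, gave 106, 109 and 111 CPM in D-gel@GSNP. It gave 14.1, 15.1 and 15.3 CPM in L-gel@GSNP, 16.5, 27.4 and 21.6 CPM in D-gel@NP, 44.7, 47.5 and 44.6 CPM in PBS and 108, 105 and 110.1 CPM in non-SP. The D-gel@NP libraries were the most spread, from just above L-gel@GSNP to 27.4 CPM, still under all PBS libraries.

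Clec1a (ENSMUSG00000033082), the lectin-like receptor, was read at 15.2, 13.9 and 13.2 CPM in D-gel@GSNP. The same gene had 2.92, 1.96 and 1.74 CPM in L-gel@GSNP, 2.74, 2.08 and 1.82 CPM in D-gel@NP, 7.03, 6.21 and 5.26 CPM in PBS and 12.5, 13.5 and 13.97 CPM in non-SP. L-gel@GSNP and D-gel@NP overlapped, and both were below PBS. Clec1a is known from endothelial and myeloid cells, and 14 endothelial markers summed to 68.0 to 72.4 CPM in D-gel@GSNP, 129 to 137 in L-gel@GSNP, 116 to 121 in D-gel@NP, 125 to 127 in PBS and 68.5 to 70.8 CPM in non-SP. The sum was lower in D-gel@GSNP and non-SP than in the other groups. Among those other groups, PBS had more Clec1a and a higher sum than D-gel@NP. L-gel@GSNP had less Clec1a but a higher sum than PBS. Esam made up most of the endothelial sum. Tek, Emcn and Erg were at 0 in both D-gel@GSNP and non-SP, and had at most 4 counts in any other group. Vwf averaged 1.23 CPM in D-gel@GSNP, 5.88 CPM in L-gel@GSNP, 9.98 CPM in D-gel@NP, 15.7 CPM in PBS and 1.29 CPM in non-SP. Flt1, a VEGF receptor, averaged 3.57 CPM in D-gel@GSNP, 2.21 CPM in L-gel@GSNP, 3.09 CPM in D-gel@NP, 2.57 CPM in PBS and 4.87 CPM in non-SP. The sum of 12 macrophage and microglia markers was lowest in the groups with the most Clec1a and highest in PBS, with 22.2 to 23.1 CPM in D-gel@GSNP, 58.0 to 62.1 CPM in L-gel@GSNP, 55.9 to 65.2 CPM in D-gel@NP, 89.8 to 101.4 CPM in PBS and 21.1 to 22.3 CPM in non-SP. Cd68, Cd14 and Csf1r made up most of this sum. Ptprc, Adgre1, Aif1 and Tyrobp had means of at most 0.487 CPM in any group. Fcer1g and Tmem119, also at low levels, had their higher means in D-gel@GSNP and non-SP. The part of the endothelial and of the macrophage markers in the level of Clec1a was not tested.

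Syt13 (ENSMUSG00000027220), the synaptotagmin, showed the widest gap of the 8. It was at 5.52, 5.71 and 5.58 CPM in D-gel@GSNP, against 0.396, 0.0901 and 0.198 CPM in L-gel@GSNP and 0.477, 0.329 and 0.70 CPM in D-gel@NP. It was at 0.934, 0.813 and 1.16 CPM in PBS and at 5.92, 5.17 and 5.67 CPM in non-SP. The low groups rest on few reads, with 14, 4 and 20 counts in L-gel@GSNP and 8, 13 and 28 counts in D-gel@NP, and these 2 groups overlapped. Summed neuronal markers (8 genes) were at 0.722 to 1.08 CPM in D-gel@GSNP, 8.56 to 12.2 CPM in L-gel@GSNP, 4.67 to 5.01 CPM in D-gel@NP, 1.02 to 1.80 CPM in PBS and 1.29 to 1.41 CPM in non-SP. Map2 made up most of that sum in L-gel@GSNP and D-gel@NP, and Snap25 had no count in 4 of the 5 groups.

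Rflnb (ENSMUSG00000020846), the filamin-binding protein, was at 11.2, 12.3 and 12.02 CPM in D-gel@GSNP. It was at 4.61, 3.92 and 4.66 CPM in L-gel@GSNP, at 2.09, 2.61 and 2.75 CPM in D-gel@NP, at 2.31, 3.14 and 3.80 CPM in PBS and at 9.11, 9.09 and 10.0 CPM in non-SP. Among the low groups, L-gel@GSNP was highest here, while D-gel@NP and PBS overlapped. Every D-gel@GSNP library lay above every non-SP library in Rflnb, and by less in Nup210, without passing the test given below.

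Arap3 (ENSMUSG00000024451), the regulator of small GTPases, was only in part a gene of that pattern. It had 8.03, 9.91 and 7.63 CPM in D-gel@GSNP and, little under that, 6.06, 6.04 and 6.85 CPM in L-gel@GSNP. D-gel@NP gave 5.60, 3.50 and 3.15 CPM, PBS 1.17, 1.51 and 2.71 CPM and non-SP 8.63, 9.96 and 7.58 CPM. L-gel@GSNP kept 72.4% of the non-SP mean of Arap3, so the rule's word low holds for PBS (20.6% of the non-SP mean) but hardly for L-gel@GSNP.

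Nup210 (ENSMUSG00000030091), the nuclear pore glycoprotein, was at 17.0, 16.5 and 15.6 CPM in D-gel@GSNP, 6.68, 7.95 and 7.29 CPM in L-gel@GSNP and 9.12, 8.29 and 8.25 CPM in D-gel@NP. PBS held 2.93, 4.21 and 4.38 CPM and non-SP 14.95, 15.1 and 14.5 CPM. PBS was the lowest group in Nup210, as in Arap3, whereas in Akap12, Ksr2, Kctd12, Clec1a and Syt13 it was the highest of the 3 low groups.

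The first tested comparison asked whether D-gel@GSNP and non-SP, the 2 groups in which these genes are high, differ from each other in them. In none of the 8 genes did the difference pass edgeR's quasi-likelihood test at an adjusted p of 0.05, against 0.417% of all 17497 genes tested (73 genes). At an unadjusted p under 0.05 it was 1 gene, Rflnb, and neither DESeq2 nor limma called any of the 8. The log2 differences, D-gel@GSNP minus non-SP, ran from -0.03 in Arap3 to 0.33 in Rflnb, with 0.08 in Akap12, 0.01 in Kctd12, 0.10 in Ksr2, 0.08 in Clec1a, 0.00 in Syt13 and 0.14 in Nup210, and those of Kctd12, Syt13 and Arap3 changed sign between settings. For Akap12 the 95% interval of -0.06 to 0.22 leaves room for little change, while for Syt13 it spans -0.43 to 0.44 and for Arap3 -0.44 to 0.38. Rflnb averaged 11.8 ± 0.567 CPM in D-gel@GSNP and 9.40 ± 0.522 CPM in non-SP (SD, n = 3), with an interval of 0.05 to 0.61 and an adjusted p of 0.439. A p that misses the threshold does not show that the levels are equal. The choice asked for high levels in both groups, which favours a small difference. The absence of calls among the 8 is therefore no independent sign of likeness. The count of genes called in this comparison rests on single libraries, with 140 genes when D-gel@GSNP replicate 3 is left out and 6 to 10 when any of the other 5 is, while the count among the 8 genes stayed at 0 in all of these.

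The second asked how L-gel@GSNP stood to PBS, both of them groups in which the genes are low. All 8 differed, in opposite directions, with 5 lower and 3 higher, while of all genes tested 45.6% were called, 24.1% lower and 21.5% higher. Akap12 fell to 10.9 ± 0.469 CPM in L-gel@GSNP, against 43.5 ± 2.63 CPM in PBS (SD, n = 3), a log2 difference of -1.98 ± 0.08 (SE) with an adjusted p of 1.58e-14 by edgeR. Ksr2 fell by 1.65 on the log2 scale (adjusted p = 3.94e-11), Kctd12 by 1.62 (2.39e-11), Clec1a by 1.53 (1.04e-07) and Syt13 by 2.16 (9.48e-06). Arap3 went the other way, with 6.32 ± 0.462 CPM in L-gel@GSNP against 1.80 ± 0.809 CPM in PBS, a log2 difference of 1.82 ± 0.23 (adjusted p = 8.82e-07, edgeR). Nup210 rose by 0.93 on the log2 scale (adjusted p = 1.9e-06), and Rflnb by 0.52 (adjusted p = 0.00722), a call that is lost without PBS replicate 1 (0.36, adjusted p = 0.0542). Of the calls over all genes 47.1% were higher in L-gel@GSNP, a share that becomes 57.1% with upper-quartile scaling, under which the 8 genes kept their directions and calls.

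D-gel@NP against the same PBS libraries gave a like division with smaller differences in most genes. Here 5 genes were lower, 2 were higher and 1 was not called, against 16.3% lower and 14.2% higher over all genes (30.4% called). Akap12 fell by 1.34 on the log2 scale (adjusted p = 2.48e-11, edgeR), Kctd12 by 1.03 (7.54e-08), Clec1a by 1.53 (1e-06) and Ksr2 by 0.43 (0.00266). Syt13 fell by 0.93 (adjusted p = 0.0269), a call lost without D-gel@NP replicate 1 (adjusted p = 0.0577), D-gel@NP replicate 2 (0.175) or PBS replicate 3 (0.0952). Nup210 rose by 1.14 (adjusted p = 5.62e-07) to 8.55 ± 0.494 CPM in D-gel@NP, against 3.84 ± 0.791 CPM in PBS (SD, n = 3), and Arap3 rose by 1.13 (adjusted p = 0.00116). Rflnb had a log2 difference of -0.28 with an interval of -0.62 to 0.06 (adjusted p = 0.215), and passed the test, as lower, without PBS replicate 1 (-0.44, adjusted p = 0.0445). With upper-quartile scaling the share of calls that were higher in D-gel@NP was 57.2%, against 46.5% with TMM.

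Both of these comparisons share the PBS libraries, so their likeness is no separate evidence, and these gel groups were set against each other directly. Their labels differ both in L-gel or D-gel and in GSNP or NP, so these cannot be told apart in this comparison. L-gel@GSNP minus D-gel@NP gave 4 genes lower, 2 higher and 2 not called, against 11.1% lower and 8.33% higher over all genes (19.5% called). Ksr2 had the lowest adjusted p of the 8, at 3.64 ± 0.279 CPM in L-gel@GSNP against 8.65 ± 0.749 CPM in D-gel@NP (SD, n = 3), a log2 difference of -1.22 ± 0.11 (SE, adjusted p = 1.1e-07, edgeR). Akap12 and Kctd12 were also lower in L-gel@GSNP, with log2 differences of -0.65 and -0.58 (adjusted p = 5.89e-06 and 0.000287). Rflnb was higher in L-gel@GSNP, with a log2 difference of 0.80 (adjusted p = 0.000945). Syt13 (-1.23, adjusted p = 0.0207) and Arap3 (0.69, adjusted p = 0.027) passed by little. The call of Syt13 was lost without L-gel@GSNP replicate 2 or 3 or D-gel@NP replicate 3 (adjusted p = 0.078, 0.0871 and 0.229), and that of Arap3 without L-gel@GSNP replicate 3 or D-gel@NP replicate 2 or 3 (0.0822, 0.114 and 0.153). Clec1a had a log2 difference of 0.00 with an interval of -0.41 to 0.41, and Nup210 one of -0.22 with an interval of -0.46 to 0.03 (adjusted p = 0.225).

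**Figure D2:**
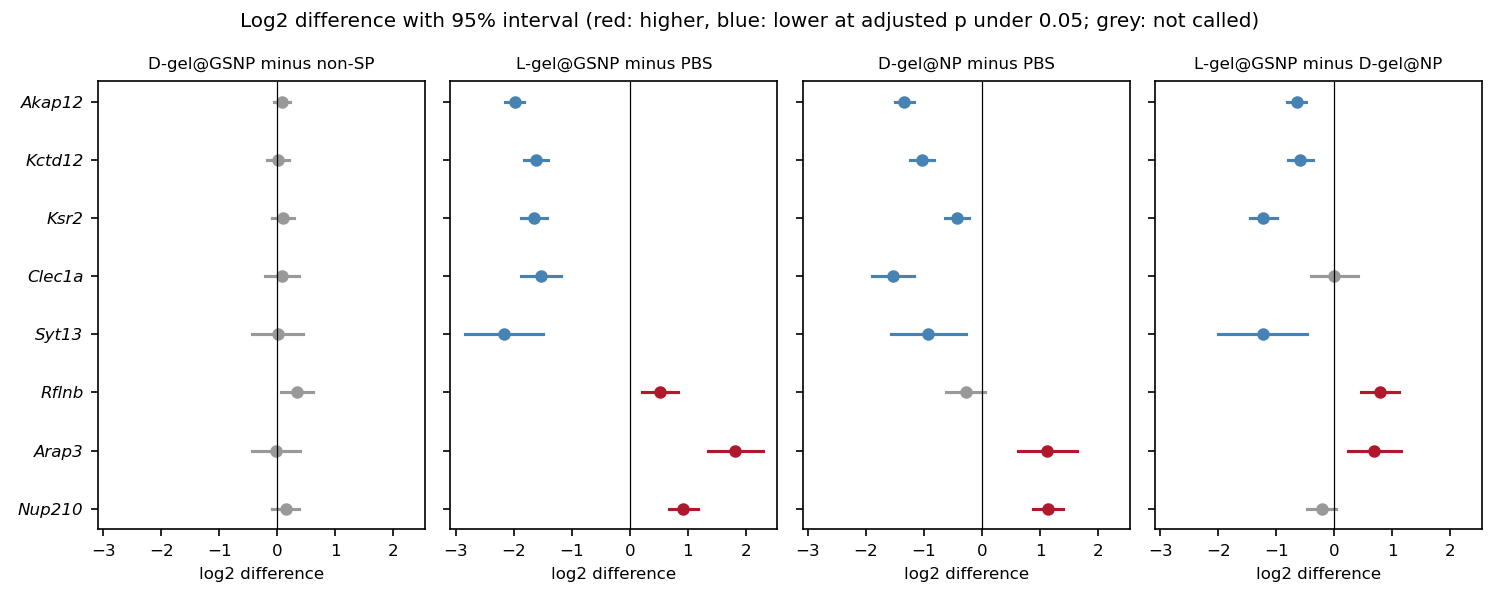
Log2 difference with its 95% interval for the 8 genes in the 4 tested comparisons, the first-named group minus the second. Red and blue mark genes called higher and lower at an adjusted p under 0.05 and grey those not called, from 0 called in D-gel@GSNP minus non-SP to 8 in L-gel@GSNP minus PBS.

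Set against the groups that defined the choice, the sizes of the differences were as follows, given as description only. D-gel@GSNP minus PBS was 1.25 in Akap12, 1.25 in Kctd12, 1.06 in Ksr2 and 1.19 in Clec1a on the log2 scale, and larger, at 2.53, 1.94, 2.25 and 2.09, in Syt13, Rflnb, Arap3 and Nup210 in that order. D-gel@GSNP minus L-gel@GSNP ran from 0.43 in Arap3, through 1.16 in Nup210 and 1.42 in Rflnb, to 3.24 in Akap12 and 4.69 in Syt13. D-gel@GSNP minus D-gel@NP ran from 0.94 in Nup210 to 3.46 in Syt13. The median of the 8 was 1.60 against PBS, 2.72 against L-gel@GSNP and 2.25 against D-gel@NP, where the median of all genes was -0.02, -0.04 and -0.04. These comparisons share the D-gel@GSNP libraries. PBS minus non-SP had a median of -1.42 over the 8 genes, from -2.52 in Syt13 to -0.97 in Ksr2.

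The pattern by which the 8 were chosen is common in the table. In 3254 of the 17497 tested genes (18.6%) the lowest of the 6 D-gel@GSNP and non-SP libraries lay above the highest of the other 9, and in 2848 genes (16.3%) the opposite held. All 8 genes meet the first condition, as the choice had it. The ratio of that lowest to that highest value was 4.44 in Syt13, the largest of all tested genes, 2.20 in Kctd12 (rank 30), 2.07 in Akap12 (50), 1.95 in Rflnb (71), 1.78 in Clec1a (137), 1.64 in Ksr2 (215), 1.59 in Nup210 (265) and 1.11 in Arap3 (2166). A gap of at least 2-fold was found in 58 genes (0.331%), among them Syt13, Kctd12 and Akap12. What the choice did not fix is how the low groups stand to each other. Of the 3254 genes of the same pattern, 41.6% were lower and 10.3% higher in L-gel@GSNP than in PBS, and 28.5% were lower and 6.36% higher in D-gel@NP than in PBS. In L-gel@GSNP minus D-gel@NP 16.3% of them were lower and 5.96% higher. Lower in both gels than in PBS were 23.8% of them, like Akap12, Kctd12, Ksr2, Clec1a and Syt13, and higher in both were 4.7%, like Arap3 and Nup210.

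**Figure D3:**
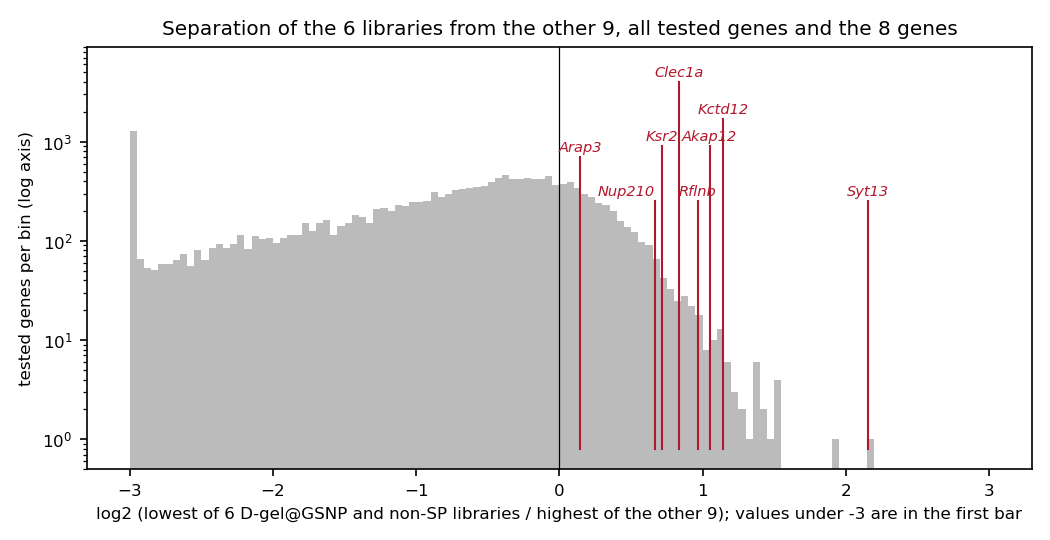
Log2 ratio of the lowest of the 6 D-gel@GSNP and non-SP libraries to the highest of the other 9 for all tested genes (grey, number of genes per bin on a log axis), with the 8 genes as red lines. Values right of 0 are genes whose 6 libraries all lie above the other 9 (3254 of 17497), and the 8 genes run from Arap3 with a ratio of 1.11 to Syt13 with 4.44.

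Over the 15 libraries the log2 levels of the 8 genes formed 2 sets. Akap12, Kctd12, Ksr2, Clec1a and Syt13 correlated with each other at Pearson's r of 0.903 to 0.995, highest between Akap12 and Kctd12, while Arap3 and Nup210 correlated with each other at 0.898. Arap3 had r of only 0.264 to 0.412 with those 5 genes and Nup210 0.507 to 0.636, so the sets are not sharply apart. Rflnb stood between them, with 0.651 to 0.798 to the 5 genes, 0.752 to Arap3 and 0.804 to Nup210. The libraries share their groups and were used for the choice, so these values are descriptions without a p. Among the 12729 tested genes with a mean of at least 1 CPM, the 10 genes most like the mean profile of the 8 were Ncln, Ticrr, Eif2b5, Dock5, Kmt5a, Ywhab, Gemin5, Rrp7a, Akt1 and Eftud2, with r of 0.994 to 0.995, and 1034 genes had r above 0.95. That profile stands less well for Arap3 (r = 0.608) and Nup210 (0.789) than for the other members (0.899 to 0.957). Ticrr, a replication initiation factor, ranged over 64.1 to 68.6 CPM in D-gel@GSNP, 20.5 to 21.5 CPM in L-gel@GSNP, 22.1 to 22.8 CPM in D-gel@NP, 21.5 to 26.1 CPM in PBS and 56.5 to 59.4 CPM in non-SP. Akt1, the protein kinase B gene, ranged over 468 to 492 CPM in D-gel@GSNP, 253 to 267 CPM in L-gel@GSNP, 253 to 271 CPM in D-gel@NP, 273 to 294 CPM in PBS and 449 to 464 CPM in non-SP. Taken one by one, the gene with the highest r was Klhdc4 for both Akap12 (r = 0.997) and Kctd12 (0.995), Snx8 for Ksr2 (0.990), Sap18 for Clec1a (0.991), Bag2 for Syt13 (0.986), Fbn1, the gene of the matrix protein fibrillin, for Rflnb (0.992), Nectin2 for Arap3 (0.972) and Rcc2 for Nup210 (0.983). An r does not measure the size of a change. Group means of Sap18 ran from 103 to 136 CPM, and those of Clec1a from 2.21 to 14.1 CPM. Bag2 ran from 21.3 to 42.9 CPM, and Syt13 from 0.228 to 5.60 CPM.

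Most lists of relatives and partners of the 8 genes held calls in both directions in D-gel@GSNP minus PBS, and the nuclear pore list held nearly all of its calls there in one. The 8 lists hold 144 genes, of which 140 are in the table, and 122 of them were tested. In D-gel@GSNP minus non-SP edgeR called 0 of these, with 22 at an unadjusted p under 0.05, and DESeq2 called 3, all of the nuclear pore (2 higher, 1 lower). In D-gel@GSNP minus PBS 55% of all tested genes were called, 27.4% higher and 27.5% lower. The shares of all genes called higher and lower were 21.5% and 24.1% in L-gel@GSNP minus PBS and 14.2% and 16.3% in D-gel@NP minus PBS. Among 28 tested nuclear pore genes other than Nup210, 24 were higher and 1 lower in D-gel@GSNP, with a median log2 difference of 0.56 against -0.02 over all genes. Under the alternatives 23 to 25 of them were called higher. Nup133 of the outer ring averaged 103 ± 1.92 CPM over the D-gel@GSNP libraries and 49.1 ± 2.94 CPM in PBS (log2 difference 1.08, adjusted p = 1.72e-12, edgeR). Nup188 and Nup205 of the inner ring rose by 0.99 and 0.84 on the log2 scale (adjusted p = 1.08e-11 and 1.53e-12). Pom121 and Ndc1, which like Nup210 span the nuclear membrane, rose by 1.15 and 0.58 (adjusted p = 2.41e-11 and 4.03e-09), whereas Ranbp2 of the cytoplasmic filaments fell by 0.57 (1.38e-08). In L-gel@GSNP minus PBS, where Nup210 rose, 3 of the other nuclear pore genes were higher and 16 lower (median -0.18), or 6 and 11 with upper-quartile scaling, Nup35 falling by 0.53 (adjusted p = 1.99e-06) and Sec13 by 0.35 (2.48e-06). In D-gel@NP minus PBS 2 were higher and 9 lower, a balance that became 6 higher and 2 lower with upper-quartile scaling. Across all alternatives the nuclear pore counts ran from 1 to 6 higher and 11 to 16 lower in L-gel@GSNP minus PBS, and from 0 to 6 higher and 2 to 9 lower in D-gel@NP minus PBS, with the lowest of the last count, 2, also without PBS replicate 2. Nup210l, the closest relative of Nup210, was at 2.34 ± 0.465 CPM in L-gel@GSNP against 3.26 ± 0.517 CPM in PBS (SD, n = 3, log2 difference -0.46, adjusted p = 0.034).

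**Figure D4:**
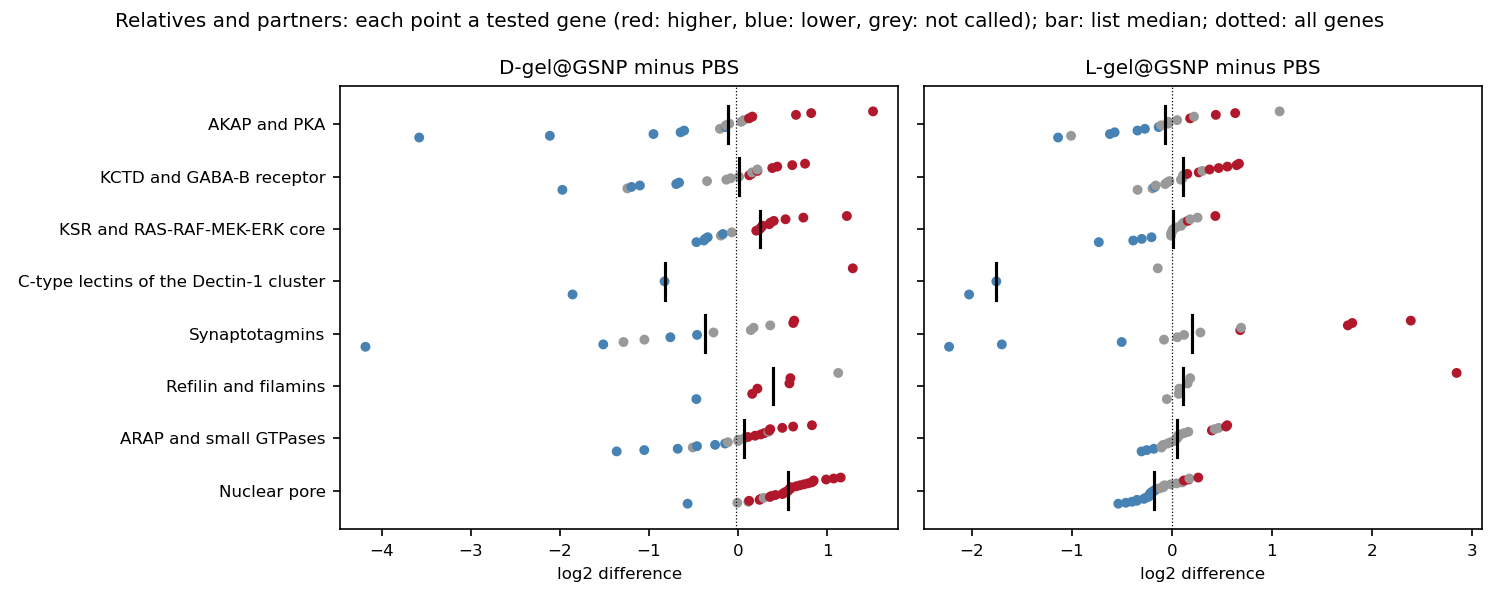
Log2 difference of each tested relative or partner gene (points) by list in D-gel@GSNP minus PBS and in L-gel@GSNP minus PBS, with black bars for list medians and a dotted line for the median of all genes. Red, blue and grey mark genes called higher, called lower and not called. The nuclear pore list has 24 of 28 genes higher on the left (27.4% of all genes) and 16 of 28 lower on the right (24.1% of all genes).

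The core of the RAS, RAF, MEK and ERK cascade, in which Ksr2 acts, moved in both directions in D-gel@GSNP minus PBS, with 10 of 17 genes higher and 5 lower. Of all genes 27.4% were higher and 27.5% lower there, and 21.5% and 24.1% in L-gel@GSNP minus PBS. Ksr1, the closest relative of Ksr2, averaged 8.86 ± 0.730 CPM over the D-gel@GSNP libraries and 3.79 ± 0.801 CPM in PBS (log2 difference 1.22, adjusted p = 7.75e-07, edgeR), and 8.94 ± 0.314 CPM in non-SP. In L-gel@GSNP Ksr1 was at 4.47 ± 0.977 CPM (log2 difference from PBS 0.26, adjusted p = 0.205), and whether Ksr1 and Ksr2 differ in this was not tested. The MEK genes were split, and D-gel@GSNP against PBS showed a rise of Map2k2 by 0.74 (adjusted p = 3.56e-11) and a fall of Map2k1, by 0.47 on the log2 scale (1.26e-07). In L-gel@GSNP minus PBS 2 of the 17 were higher (4 with upper-quartile scaling, 1 without L-gel@GSNP replicate 3 or PBS replicate 3) and 4 lower, among them Hras, a RAS GTPase, with a fall of 0.73 (adjusted p = 2.33e-09), and Map2k2 with a fall of 0.38 (1.83e-06).

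Genes of A-kinase anchoring and of protein kinase A were 5 higher and 6 lower of 16 in D-gel@GSNP minus PBS, and 3 higher and 6 lower in L-gel@GSNP minus PBS. The shares of all genes were 27.4% higher and 27.5% lower in the former and 21.5% and 24.1% in the latter. The first pair of counts was 3 and 7 with upper-quartile scaling, 3 and 6 without PBS replicate 1 or PBS replicate 3 and 2 and 6 to 7 with limma, and the second was 3 and 3 without PBS replicate 2. Prkar2a, a regulatory subunit of protein kinase A that anchoring proteins bind, had the directions of Akap12 in the comparisons with PBS. It averaged 145 ± 5.13 CPM over the D-gel@GSNP libraries and 82.0 ± 4.06 CPM in PBS (log2 difference 0.82, adjusted p = 2.44e-11, edgeR) and fell against PBS by 0.62 in L-gel@GSNP (7.77e-09) and by 0.44 in D-gel@NP (4.08e-06). Akap9, the anchoring protein of centrosome and Golgi, fell by 0.95 in D-gel@GSNP (adjusted p = 1.32e-11) and was at 105 ± 5.21 CPM in L-gel@GSNP against 107 ± 5.89 CPM in PBS. Akap5, another membrane scaffold, had means of 0.39 to 0.802 CPM in the 5 groups.

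The next 2 lists stand beside 27.4% higher and 27.5% lower of all genes in D-gel@GSNP minus PBS, and 21.5% and 24.1% in L-gel@GSNP minus PBS. Of 19 KCTD and GABA-B receptor genes 7 were higher and 5 lower in D-gel@GSNP minus PBS, and 7 higher and 1 lower in L-gel@GSNP minus PBS, where Kctd12 fell. With upper-quartile scaling the first of these became 4 higher and 6 lower (median -0.07 against 0.01), and across all alternatives the second was 6 to 9 higher and 0 to 2 lower. Gabbr1, the GABA-B receptor subunit that binds the ligand, had 34.1 ± 2.90 CPM in L-gel@GSNP against 21.8 ± 0.989 CPM in PBS (log2 difference 0.65, adjusted p = 1.37e-06, edgeR). Kctd16, another auxiliary subunit, had at most 1 count per group, and Kctd12b 2 to 16 counts. Of the other lectins of the Dectin-1 cluster, Clec1b had at most 10 counts per group and Clec7a (Dectin-1) at most 2. The 3 tested genes of the lectin list were Olr1, Clec9a and Clec2d, so with Clec2d the list reaches beyond that cluster. Of these, 1 was higher and 2 lower in D-gel@GSNP minus PBS, and 2 were lower in L-gel@GSNP minus PBS. The 1 higher gene was not called without D-gel@GSNP replicate 2 or 3 or PBS replicate 1 or 2. Olr1, the oxidised LDL receptor of that cluster, was at 1.02 ± 0.187 CPM in L-gel@GSNP and 1.79 ± 0.0607 CPM in D-gel@NP, against 3.47 ± 0.293 CPM in PBS (adjusted p = 8.19e-07 and 0.002), and unlike Clec1a it was lower in D-gel@GSNP than in PBS (log2 difference -0.82, adjusted p = 0.00186).

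For the lists of Syt13 and Rflnb the same shares of all genes apply (27.4% and 27.5%, and 21.5% and 24.1%). Among 12 synaptotagmins and extended synaptotagmins, 2 were higher and 4 lower in D-gel@GSNP minus PBS, and 4 higher and 3 lower in L-gel@GSNP minus PBS, or 2 and 1 with the filter of 1 CPM. Esyt1, a tether between endoplasmic reticulum and plasma membrane, rose by 0.62 (adjusted p = 5.84e-08, edgeR) and Esyt2 fell by 0.46 (4.25e-09). Syt14 had 0.195 ± 0.0272 CPM in L-gel@GSNP against 0.629 ± 0.174 CPM in PBS (adjusted p = 0.00841), the direction of Syt13, at a level of few reads. Syt14 averaged 0.69 CPM in D-gel@GSNP, 0.25 CPM in D-gel@NP and 0.48 CPM in non-SP, where unlike Syt13 it lay below PBS. For Rflnb, 4 of the 6 refilin and filamin genes were higher (2 with upper-quartile scaling) and 1 lower in D-gel@GSNP minus PBS, and the filamin Flnc was higher by 0.58 on the log2 scale (adjusted p = 6.91e-06). Rflna, the other refilin, had 1.56 ± 0.449 CPM in L-gel@GSNP against 0.219 ± 0.251 CPM in PBS (log2 difference 2.85, adjusted p = 0.000152), the direction of Rflnb there. The PBS value rests on 26 counts. Rflna averaged 0.47 CPM in D-gel@GSNP, 0.55 CPM in D-gel@NP and 0.38 CPM in non-SP, so unlike Rflnb it was highest in L-gel@GSNP. Of that list 1 gene was called higher in L-gel@GSNP minus PBS, and 3 with upper-quartile scaling or the filter of 1 CPM. Without L-gel@GSNP replicate 1 or 2 or PBS replicate 3 it was 2.

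Over all genes 27.4% were higher and 27.5% lower in D-gel@GSNP minus PBS, and 21.5% and 24.1% in L-gel@GSNP minus PBS. The genes of small GTPases and their regulators around Arap3 were 9 higher and 6 lower of 21 in D-gel@GSNP minus PBS, and 3 higher and 3 lower in L-gel@GSNP minus PBS. With upper-quartile scaling these balances became 6 higher and 7 lower, and 6 higher and 2 lower. Both other ARAP genes were lower in D-gel@GSNP there, while Arap3 was higher. Arap2 averaged 16.9 ± 1.08 CPM over the D-gel@GSNP libraries and 43.4 ± 2.98 CPM in PBS (log2 difference -1.36, adjusted p = 4.44e-13, edgeR), and Arap1 averaged 37.4 ± 1.12 CPM over D-gel@GSNP and 44.7 ± 2.37 CPM in PBS (-0.26, adjusted p = 0.000704). In L-gel@GSNP minus PBS Arap1 rose by 0.55 (adjusted p = 6.29e-08), as Arap3 did, and Arap2 fell by 0.30 (0.000904). Asap1, another ARF regulator, rose by 0.83 (adjusted p = 1.96e-10) in D-gel@GSNP minus PBS.

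By GENCODE vM21 all 8 genes are protein coding, on chromosomes 10 (Akap12), 14 (Kctd12), 5 (Ksr2), 6 (Clec1a and Nup210), 2 (Syt13), 11 (Rflnb) and 18 (Arap3). Kctd12 shares 3805 of its 6057 exonic bases with the lincRNA Gm26778 on the opposite strand and 84 with Mir5130, and Arap3 shares 115 with Mir6981. The strand setting of the counting is not given in the sources used here, so reads from Kctd12 and its antisense partner cannot be told apart, and Gm26778 itself is not analysed here. Summed fibroblast and pericyte markers, mostly Dcn, were lower in D-gel@GSNP and non-SP than in the other groups, at 690 to 715 CPM in D-gel@GSNP, 1318 to 1477 in L-gel@GSNP, 1459 to 1515 in D-gel@NP, 1292 to 1366 in PBS and 695 to 722 CPM in non-SP. Col1a1 of the same list went the other way, with means of 14.4 CPM in D-gel@GSNP, 3.06 CPM in L-gel@GSNP, 1.44 CPM in D-gel@NP, 1.58 CPM in PBS and 13.4 CPM in non-SP. Glioma and stem-like markers summed to 1514 to 1587 CPM in D-gel@GSNP, 1897 to 2071 in L-gel@GSNP, 1896 to 2023 in D-gel@NP, 2306 to 2432 in PBS and 1472 to 1495 CPM in non-SP. Vim and Cd44 made up most of the glioma and stem-like sum. Nes of that list went the other way. Its means were higher in non-SP (3.70 CPM) and D-gel@GSNP (3.38 CPM) than in PBS (1.24 CPM), D-gel@NP (1.57 CPM) and L-gel@GSNP (2.07 CPM). Sox9 had its lowest mean in L-gel@GSNP (54.4 CPM). Prom1, Olig2, Gfap and Fabp7 had means of at most 0.28 CPM in any group. The part of these marker levels in the values of the 8 genes was not tested.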

How the data were processed

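RNA was measured in 15 libraries of GL261 cells. Per the submitters' processing notes the authors used fastp 0.22.0, HISAT2 2.1.0, featureCounts and DESeq2 with GRCm39; settings and strand are not given in the sources used here. The deposited counts are whole reads per gene, 16626413 to 98102794 per library. Of counts from 1 to 10, 64.0 to 68.6% per library were even, so that both mates of a read pair may often be counted. The deposited FPKM values equal count over length and library total for all 34259 genes within a relative tolerance of 0.0001. Symbols come from a name table (32434 identifiers matched, 1825 did not, 27 share a symbol).

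Counts were tested with edgeR 4.0.16 in R 4.3.3 (filterByExpr, TMM, quasi-likelihood, 1 mean per group over all 15 libraries), with Benjamini-Hochberg adjustment over 17497 genes at 0.05; the biological coefficient of variation was 8.06%. Library totals set the precision of low genes, and all intervals are 95% intervals of the fit. Of the 10 pairwise comparisons, the 4 between groups on the same side of the choice were tested for the 8 genes, and 6 were described. Alternatives tried were factors by RLE or by upper quartile, leaving the filter out, a filter of 1 CPM in 3 libraries, DESeq2 1.42.0, only the 6 libraries compared, a replicate block, each library left out, and limma 3.58.1 on log2(FPKM + 1) or log2(FPKM + 0.1), a scale that understates changes of low genes. The same alternatives for the partner lists were added after seeing the data.

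The members and all lists were chosen with earlier results of these data known. Named are the 8 genes, up to 3 genes per partner list with the lowest adjusted p in D-gel@GSNP minus PBS, up to 2 in each of the 4 tested comparisons, the closest paralogs, and the genes most like in pattern (without predicted genes named Gm or Rik). Only some of these are printed. Ranbp2 was named by its adjusted p in D-gel@NP minus PBS, and its D-gel@GSNP minus PBS value was printed after it was seen. Pakap, Kctd8, Syt9, Nup58, Cldn5, Trem2, Stmn2, Lum and Sox2 were listed and are not analysed here. No coordinates of the authors' build are given.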

Additional observations from a re-analysis of the deposited data

How the results depend on the processing

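The calls of the 8 genes kept their direction in every alternative in which they were called. The number of genes called in D-gel@GSNP minus non-SP was 73 and moved to 239 with no filter, 195 with DESeq2, 282 with only the 6 libraries compared, 25 with limma on log2(FPKM + 1), 11 with the same and no filter and 36 with limma on log2(FPKM + 0.1), and lay between 6 and 140 when libraries were left out in turn. At an unadjusted p under 0.05 it was 1581. The replicate numbers did not pair the libraries (r of their deviations -0.036 to 0.045 in 30 pairs of the same number, none above 0.1), and a replicate block gave 34 genes there and changed the count of all genes called, or of the 8 genes, by over 1.5 times in no other comparison. Of the partner lists, KCTD genes called lower in L-gel@GSNP minus PBS went to 2 (1 without the block), synaptotagmins called higher in L-gel@GSNP minus D-gel@NP to 2 (1) and synaptotagmins called lower in D-gel@NP minus PBS to 0 (1). The number of the 8 genes called in D-gel@NP minus PBS was 7, and 4 with limma on log2(FPKM + 1) without a filter, where Ksr2, Syt13 and Arap3 lost their calls. Without single libraries it was 6 to 8, in L-gel@GSNP minus PBS 7 to 8, in L-gel@GSNP minus D-gel@NP 4 to 6 and in D-gel@GSNP minus non-SP 0. The median log2 difference of the 8 genes was smaller with limma on log2(FPKM + 1), with or without the filter, by construction of the pseudocount: 0.92 in D-gel@GSNP minus PBS, -0.89 in PBS minus non-SP, -1.14 in L-gel@GSNP minus non-SP, -1.11 in D-gel@NP minus non-SP, 1.15 in D-gel@GSNP minus L-gel@GSNP and 1.21 in D-gel@GSNP minus D-gel@NP. With log2(FPKM + 0.1) it was -2.29 in L-gel@GSNP minus non-SP and 2.34 in D-gel@GSNP minus L-gel@GSNP.

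Sign changes were found only in differences near 0 that were not called. In D-gel@GSNP minus non-SP these were Kctd12 (-0.0118 with upper-quartile factors, -0.0135 with only the 6 libraries compared, -0.0229 with limma on log2(FPKM + 1) and -0.0241 with log2(FPKM + 0.1)) and Syt13 (-0.0026 with RLE factors, -0.0209 with upper-quartile factors, -0.0085 with the filter of 1 CPM, -0.0027 with DESeq2, -0.0225 with only the 6 libraries compared, -0.0189 with limma on log2(FPKM + 1) and -0.0291 with log2(FPKM + 0.1)). Leaving out single libraries gave Kctd12 -0.0056 to 0.0326, Syt13 -0.0475 to 0.0485 and Arap3 -0.1557 to 0.075. In L-gel@GSNP minus D-gel@NP, Clec1a was at -0.0113 with the replicate block, -0.0042 with limma on log2(FPKM + 0.1) and -0.2166 to 0.1783 without single libraries. There Syt13 and Arap3 also lost their calls with limma, and Syt13 with only the 6 libraries compared (adjusted p = 0.176, and 0.0942 in D-gel@NP minus PBS). The causes were not tested. Upper-quartile factors moved the median of all genes by over 0.1 on the log2 scale, to -0.18 in D-gel@GSNP minus L-gel@GSNP, -0.16 in D-gel@GSNP minus D-gel@NP and 0.16 in L-gel@GSNP minus non-SP, and the share of calls that were higher from 49.4 to 38.1% and from 49.3 to 38.6% in the first and second of these. Depth limits Syt13 in L-gel@GSNP and D-gel@NP, where it had few counts.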
